A study of Mus musculus with 10 samples.

Results

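The genes described here are the homeobox and PAX transcription factors that pattern the cerebellum, namely En1, En2, Pax2, Pax3, Pax6, Otx2, Gbx2, Meis1, Meis2 and Barhl1. They were chosen by name, and every probe set (the group of short probes that reports a transcript) annotated to 1 of these symbols and to no other gene was taken. This gave 21 probe sets of 9 of the 10 genes, among 35041 probe sets of 18193 genes that name a single gene. Pax2 is not analysed here. Of the 21, 15 were on the Affymetrix 430A chip and 6 on the 430B chip.

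The tumours were medulloblastomas, malignant tumours of the cerebellum, from mice with the alleles CAGGS-CreER and R26-SmoM2, and they were compared with cerebellar tissue beside tumours in mice of the same genotype, which the labels call wild type. The mice carry a tamoxifen-dependent Cre recombinase under the widely active CAGGS promoter, and an activated Smoothened that Cre switches on at the Rosa26 locus. The mice received tamoxifen on postnatal day 10, in a dose of 1 mg for each 40 g they weighed. Each chip held 3 medulloblastoma and 2 cerebellum samples, 10 arrays in all. The sources used here give neither the age at collection nor whether a tumour and a cerebellum sample shared an animal. Both groups come from mice with both alleles and the injection, so no sample is free of them.

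These factors divide the neural tube and the cerebellum into regions and lineages. Otx2 marks the forebrain and midbrain and Gbx2 the hindbrain, and the border between them forms the isthmic organiser, where En1, En2 and Pax2 act in the tissue that becomes midbrain and cerebellum. Pax6 and Barhl1 belong to the granule neuron lineage, Pax2 to the precursors of inhibitory interneurons, and Meis1 and Meis2 are homeodomain cofactors that bind DNA with PBX proteins. In people, OTX2 is a known oncogene of medulloblastoma outside the Hedgehog subgroup.

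Barhl1, Otx2 and Meis1 were higher in medulloblastoma than in cerebellum, and En2 was lower. Barhl1 was higher on both of its probe sets and Meis1 on 2 of 3. Pax6 was lower on 1 of 4 tested probe sets, a call that 8 of 13 other settings ended. No call was made for Pax3, Gbx2 or the single tested probe set of Meis2, and En1 was too dim to enter the test. Of 12 tested members on 430A, 4 were higher and 2 lower, where 13.1% of all 16969 tested were higher, 19% lower and 32.2% called either way. Of the 3 tested on 430B, 1 was higher, where 7.85% of all 16883 were. None was lower there in limma or at an unadjusted p below 0.05, where 9.77% of all were called lower and 17.6% either way. The count of lower members on 430A lies near the background. The 4 higher on 430A include both probe sets of Barhl1, so they are not a count of genes. Otx2 and the dimmer probe set of Barhl1 were below 15.9, the intensity limit for entering the test, in both cerebellum samples. They entered the test through the tumours.

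**Figure D1:**
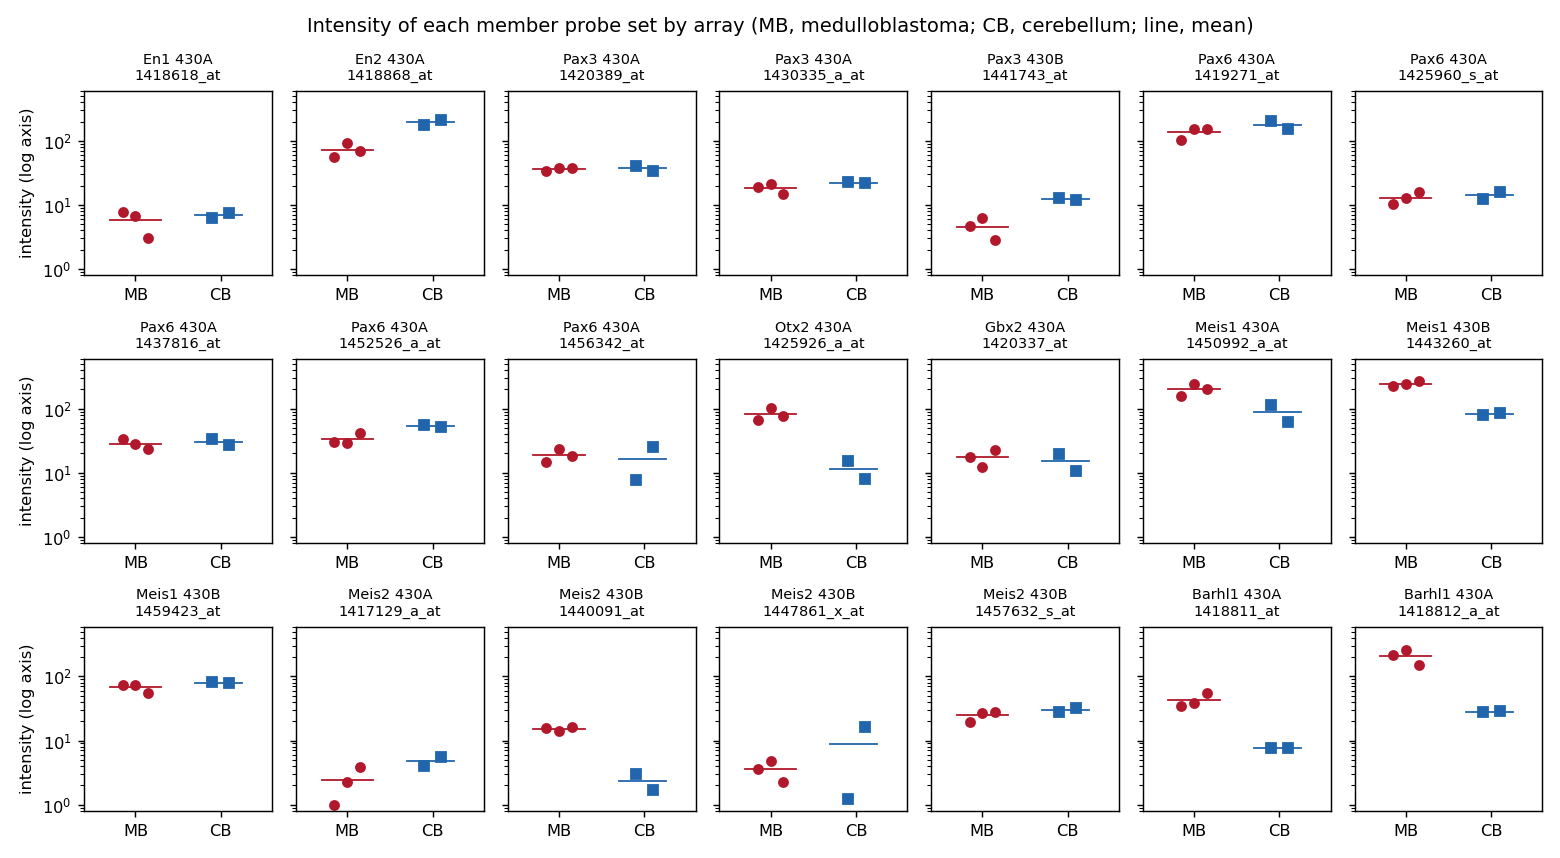
Deposited intensity (log axis) of the 21 member probe sets on each array, with 3 medulloblastoma arrays as red circles left of 2 cerebellum arrays as blue squares, and a line at each group's mean. The tumour points lie above the cerebellum points for Barhl1, for Otx2, for 2 probe sets of Meis1 and for a dim probe set of Meis2, and below them for En2 and 5 other probe sets.

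The intensities are the authors' linear values. Tests were run per chip with limma on log2(value + 16), after dropping the dimmest 25% by mean, and a call needs a Benjamini-Hochberg adjusted p below 0.05 over all tested probe sets of the chip. A log2 fold change below is tumour over cerebellum on that scale, with its SE. The added 16 shrinks the fold change of dim probe sets, so ratios of mean intensity are given as well. Levels of different probe sets cannot be set against each other. The labels call the samples biological replicates and say nothing of pooling, and p-values measure the spread between these samples only. RNA came from pieces of tissue, so fewer cells of a type and less RNA per cell cannot be told apart.

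Markers of the labelled tissues were read from lists chosen with earlier results of these data known, so they are no check of the labels. Of 12 tested granule neuron precursor markers 10 were higher in medulloblastoma and 1, Zic1, was lower, with a summed 430A intensity of 4355 to 5833 in tumours and 2575 to 2869 in cerebellum. Zic1 was left out of another sum because it was lower, a choice made on the outcome that by itself widens the gap. That sum was 3422 to 4509 in tumours and 238 to 426 in cerebellum. All 9 mitosis markers were higher. Their sum was 3396 to 3684 in tumours, and 313 in cerebellum 1 against 97.0 in cerebellum 2, so cerebellum 1 stood apart in them. Of mature granule neuron markers 8 of 9 were lower (346 to 418 in tumours and 6458 to 6997 in cerebellum), and of Purkinje cell markers 7 of 8 (232 to 416 in tumours and 10212 to 13601 in cerebellum). On 430B, tumours 1 and 2 stood apart. The median log2(value + 16) of the 100 probe sets that both chips hold was 8.01 and 7.96 there, 7.33 in tumour 3, and 7.51 and 7.54 in the cerebellum samples. Called results from 430B are therefore also given without these 2 arrays.

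En2, the engrailed homeobox gene that stays on in the postnatal cerebellum, read 56.5, 93.7 and 69.1 intensity units in tumours, against 177 and 209 in the 2 cerebellum samples. Every tumour lay below both cerebellum samples. The mean was 73.1 ± 18.9 in tumours (n = 3, SD) and 193 ± 22.0 in cerebellum (SD, n = 2), a ratio of 0.379. The log2 fold change was -1.25 ± 0.22, with a 95% interval from -1.73 to -0.77 and an adjusted p of 0.00106 in limma. Of all tested probe sets of 430A, 7.17% had a lower fold change. The call was made under all 13 other settings run on that chip, with log2 fold changes from -1.41 to -0.91. Mature granule neuron and Purkinje cell markers were lower in the same tumours (their sums stand with the markers), and their part in the value of En2 was not tested.

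En1, the paralogue that acts first in the isthmic region, read 7.74, 6.80 and 3.02 in tumours and 6.18 and 7.6 in cerebellum. The groups overlap at a level in the lowest 8.45% of 430A probe sets. The gene was therefore not tested. With no filter its log2 fold change was -0.07 with an adjusted p of 0.760, so no difference was detectable at this brightness.

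Pax6, the paired-box factor of granule neurons and their precursors, was read by 5 probe sets that did not give the same picture. The brightest, 1419271_at, had 102, 152 and 155 in tumours and 202 and 150.4 in cerebellum. A tumour value lies on each side of cerebellum 2, and the log2 fold change was -0.35 ± 0.23 (95% interval -0.86 to 0.17, adjusted p = 0.303). Probe set 1452526_a_at had 30.0, 29.6 and 42.2 in tumours and 55.1 and 51.9 in cerebellum. These groups do not overlap, and this probe set was called, at -0.49 ± 0.16 (adjusted p = 0.0431).

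That call sits close to the threshold. Its adjusted p ranged from 0.00806 to 0.209 over 13 other settings and passed 0.05 in 8, and leaving out cerebellum 1, cerebellum 2, tumour 1 or tumour 2 was each enough to end it, while the log2 fold change stayed between -0.66 and -0.27. The other tested probe sets of Pax6 had log2 fold changes of -0.07 ± 0.16 for 1437816_at (adjusted p = 0.777) and 0.15 ± 0.22 for 1456342_at (adjusted p = 0.676). The value of 1456342_at rested on single samples, with -0.26 without cerebellum 1 and 0.55 without cerebellum 2. The fifth, 1425960_s_at, averaged 12.9 in tumours and 14.2 in cerebellum and was below the filter. None of the tested probe sets of Pax6 was called higher in tumours.

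Pax3, a paired-box factor of the dorsal neural tube and neural crest, showed no called difference. Probe set 1420389_at read 34.1, 37.2 and 37.2 in tumours and 40.1 and 34.3 in cerebellum, with a log2 fold change of -0.02 ± 0.15 (95% interval -0.35 to 0.30, adjusted p = 0.925). For 1430335_a_at every tumour (19.2, 20.9 and 14.98) lay below both cerebellum samples (23.1 and 21.6), though by less than the test could call, at -0.16 ± 0.14 (adjusted p = 0.443). Groups that do not overlap were found in 55.6% of all tested 430A probe sets.

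The 430B probe set of Pax3, 1441743_at, read 4.76, 6.16 and 2.87 in tumours and 12.8 and 12.1 in cerebellum. It lay in the lowest 15.2% of its chip and was not tested. Tested with no filter, its fold change on the log2 scale was -0.47 (adjusted p = 0.0386). Of neural crest, Schwann and melanocyte markers 1 of 5 was higher and 1 lower, and their 430A sum was 194 to 220.4 in tumours and 171 to 189 in cerebellum.

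Otx2, the homeobox factor of forebrain and midbrain, had 67.2, 102 and 76.2 in tumours, against 15.1 and 8.03 in cerebellum. The lowest tumour lay over 4 times above the highest cerebellum sample. The mean was 81.8 ± 18.1 in tumours (n = 3, SD) and 11.6 ± 5.03 in cerebellum (SD, n = 2), a ratio of 7.06. Both cerebellum values lie below the filter limit of 15.9, so the probe set passed the filter through the tumours, and with no measure of detection the size of the ratio is uncertain. Its log2 fold change was 1.82 ± 0.19 (95% interval 1.40 to 2.25, adjusted p = 3.04e-05 in limma), and 1.67% of tested 430A probe sets had a higher one. The size depended on the pseudocount, with 2.76 for a pseudocount of 1 and 0.94 for 64, and the call was made under all 13 other settings. Cerebellum 1, which had the higher sum of mitosis markers, also had the higher Otx2 value of the cerebellum samples. The log2 fold change was 2.01 without it and 1.64 without cerebellum 2. The part of the mitosis markers in the value of Otx2 was not tested. Barhl1 was nearly equal in cerebellum 1 and 2, at 28.1 and 28.5 on 1418812_a_at and 7.74 and 7.63 on 1418811_at.

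Otx2 also marks the choroid plexus, the epithelium that makes cerebrospinal fluid. Of 9 choroid plexus markers on the chips 4 were tested. None of them was higher in limma, or at an unadjusted p below 0.05, and Ttr was lower. Their summed 430A intensity was 144 to 160 in tumours and 184 to 187 in cerebellum, and Kl, Kcne2 and Sostdc1 were under 16 in both groups. Aqp1, another untested marker, had 18.1, 11.8 and 18.7 in tumours and 6.08 and 6.47 in cerebellum. Its tumours lie above both cerebellum samples, and with no filter it was called higher, at 0.53 (adjusted p = 0.0211). The part of choroid plexus markers in the value of Otx2 was not tested. The midbrain and brainstem markers had 0 of 5 tested genes called in either direction, with 0 higher and 1 lower at an unadjusted p below 0.05, and a sum of 72.5 to 100.1 in tumours and 83.0 to 89.1 in cerebellum.

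Promoter sequence was taken from RefSeq on GRCm38.p6 for the members higher in tumours, as 250 bases before a transcription start, 5′ to 3′ on the gene's strand. The table held 15 starts of 8 of the 10 genes, and En2 and Pax3 are named only. Motifs were searched on both strands. They were the homeodomain core TAATTA, the MEIS core TGACAG, the E-boxes CAGCTG and CAGATG bound by proneural bHLH factors, and ACCACCC, the core of the GLI site. None of them overlapped another in the windows shown. Capitals mark the matches. Otx2 has 4 starts, 2 with TAATTA, which 4.84% of 32851 promoters hold, and 1 with CAGATG, which reads CATCTG on the gene's strand and which 14.4% hold. The first window shown has TAATTA at 3 places, beginning 234, 174 and 154 bases before the start, and the other has the E-box 59 bases before it.
Otx2 chr14:48665110-48665359 (minus strand): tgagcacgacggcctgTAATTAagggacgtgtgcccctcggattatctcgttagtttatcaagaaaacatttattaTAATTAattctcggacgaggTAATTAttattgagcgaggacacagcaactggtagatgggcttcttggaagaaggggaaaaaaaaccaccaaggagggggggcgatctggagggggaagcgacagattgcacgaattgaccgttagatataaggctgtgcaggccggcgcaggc
Otx2 chr14:48662735-48662984 (minus strand): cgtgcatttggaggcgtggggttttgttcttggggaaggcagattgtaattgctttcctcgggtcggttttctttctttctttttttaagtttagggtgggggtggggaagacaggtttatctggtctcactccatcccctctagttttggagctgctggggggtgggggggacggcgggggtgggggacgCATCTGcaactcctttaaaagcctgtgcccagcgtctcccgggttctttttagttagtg

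Gbx2, the hindbrain homeobox factor that borders Otx2, showed no called difference. It read 17.9, 12.3 and 22.6 in tumours and 19.6 and 10.5 in cerebellum. The groups overlap, and the log2 fold change was 0.12 ± 0.18 (95% interval -0.28 to 0.51, adjusted p = 0.684). The probe set passed the filter narrowly, at percentile 25.5 of the chip.

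Meis1, a TALE homeodomain factor found in granule neuron precursors, had 224, 238 and 274 on 1443260_at of 430B in tumours, and 79.5 and 85.8 in cerebellum. All tumours lay well above both cerebellum samples. The mean was 245 ± 25.8 in tumours (n = 3, SD) and 82.7 ± 4.46 in cerebellum (SD, n = 2), a ratio of 2.97. The log2 fold change was 1.40 ± 0.21 (95% interval 0.94 to 1.87, adjusted p = 0.00104 in limma). It was 1.56 without tumours 1 and 2. It was 1.04 when 430B arrays were scaled on those shared sets. This scaling moved each array's median over them to its own tissue's mean on 430A, up to a common shift. It shifts every fold change of 430B by the same amount, and their median went from -0.02 to -0.38. Tumour 3 had the highest Meis1 value, and the part of the brightness of tumours 1 and 2 on the shared probe sets was not tested.

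On 430A, Meis1 had 157, 239.9 and 204 in tumours and 115 and 61.9 in cerebellum (1450992_a_at). The tumours again lay above, but the cerebellum samples were far apart. The log2 fold change was 1.08 ± 0.26 (adjusted p = 0.00842), and it was 1.45 without cerebellum 1 and 0.70 without cerebellum 2, where the call ended at an adjusted p of 0.160. Its adjusted p ranged from 0.00039 to 0.160 over the 13 settings. On this probe set the higher cerebellum value was in cerebellum 1, which had the higher mitosis markers on the same chip. On 1443260_at of 430B the array numbered cerebellum 2 was the higher. The part of the mitosis markers in these values was not tested.

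The other 430B probe set of Meis1, 1459423_at, was not higher. It read 74.3, 72.8 and 54.7 in tumours and 80.8 and 78.2 in cerebellum, with every tumour below both cerebellum samples. The log2 fold change was -0.21 ± 0.18 (95% interval -0.61 to 0.19, adjusted p = 0.506). Its interval does not reach that of 1443260_at, though the difference between the probe sets was not tested. It was -0.57 under that scaling, which shifts the whole chip, and -0.43 without tumours 1 and 2. The sources used here do not say which Meis1 transcripts each probe set detects. The promoter of Meis1 held none of the motifs and is shown for comparison with the other members higher in tumours. ACCACCC, held by 3.92% of promoters, was in none of the 15 member windows.
Meis1 chr11:19018970-19019219 (minus strand): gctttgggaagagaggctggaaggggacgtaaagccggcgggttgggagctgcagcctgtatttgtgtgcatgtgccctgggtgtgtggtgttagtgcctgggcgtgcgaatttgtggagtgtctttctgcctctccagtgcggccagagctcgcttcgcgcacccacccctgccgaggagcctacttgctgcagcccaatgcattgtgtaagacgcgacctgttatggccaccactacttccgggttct

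Meis2, the closest relative of Meis1, was read by 4 probe sets, of which 3 lay below the filter and were not tested. The tested 1457632_s_at read 19.5, 27.1 and 28.1 in tumours and 27.4 and 32.1 in cerebellum, with a log2 fold change of -0.17 ± 0.15 (95% interval -0.50 to 0.17, adjusted p = 0.521), with -0.53 under the scaling on shared sets and -0.05 without tumours 1 and 2. Its groups overlap. Below the filter, 1440091_at had 15.5, 14.1 and 16.1 in tumours and 3.01 and 1.72 in cerebellum, and a log2 fold change of 0.77 (adjusted p = 0.00355) when no filter was set. It was left out because its mean over all 5 arrays lies in the lowest 19.9% of the chip, although the tumour values themselves are above the filter limit of 11.3. The remaining probe sets averaged 2.39 in tumours and 4.85 in cerebellum (1417129_a_at), and 3.56 in tumours and 8.83 in cerebellum (1447861_x_at).

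Barhl1, the homeobox factor that follows Atoh1 in granule neuron precursors, had the largest fold change among the members. On 1418812_a_at the tumours had 216, 259 and 153, against 28.1 and 28.5 in cerebellum. The cerebellum samples were nearly equal and all tumours lay far above them. The mean was 209 ± 53.1 in tumours (n = 3, SD) and 28.3 ± 0.29 in cerebellum (SD, n = 2), a ratio of 7.39. The log2 fold change was 2.32 ± 0.22 (95% interval 1.82 to 2.81, adjusted p = 1.68e-05 in limma), and 0.919% of tested 430A probe sets had a higher one.

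The other probe set of Barhl1, 1418811_at, had 34.5, 38.4 and 55.9 in tumours and 7.74 and 7.63 in cerebellum. The groups are again apart, with a ratio of means of 5.59. Its cerebellum values are also below 15.9, so it passed the filter through the tumours and the size of this ratio is uncertain. Tumour 3, the lowest on 1418812_a_at, was the highest here. On the log2(value + 16) scale the difference was 1.30 ± 0.17 (adjusted p = 0.000155). It was 2.31 with a pseudocount of 1, where 1418812_a_at had 2.81, and 0.57 with 64. With the lowest 50% of probe sets left out, 1418811_at was not tested. Both probe sets were called under every other setting run on them.

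Both annotated starts of Barhl1 hold CAGCTG, 99 and 15 bases before the start in the windows shown. The motif is in 13.0% of all promoters, and in 4 of the 15 member windows, with single ones of Gbx2 and Pax2. The MEIS core TGACAG is in 15.9% of promoters and in 2 member windows, of En1 and Pax6. A match is a description of the letters and not of binding.
Barhl1 chr2:28916669-28916918 (minus strand): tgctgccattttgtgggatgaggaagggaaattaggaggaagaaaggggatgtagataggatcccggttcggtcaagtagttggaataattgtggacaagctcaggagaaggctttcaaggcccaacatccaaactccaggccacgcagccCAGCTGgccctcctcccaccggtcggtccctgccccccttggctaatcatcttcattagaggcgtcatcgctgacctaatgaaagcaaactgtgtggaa
Barhl1 chr2:28912496-28912745 (minus strand): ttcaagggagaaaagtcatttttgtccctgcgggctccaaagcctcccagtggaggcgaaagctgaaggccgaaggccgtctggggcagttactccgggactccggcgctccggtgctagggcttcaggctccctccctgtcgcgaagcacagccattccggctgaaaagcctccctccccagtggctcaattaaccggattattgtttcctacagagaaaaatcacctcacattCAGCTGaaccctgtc

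**Figure D2:**
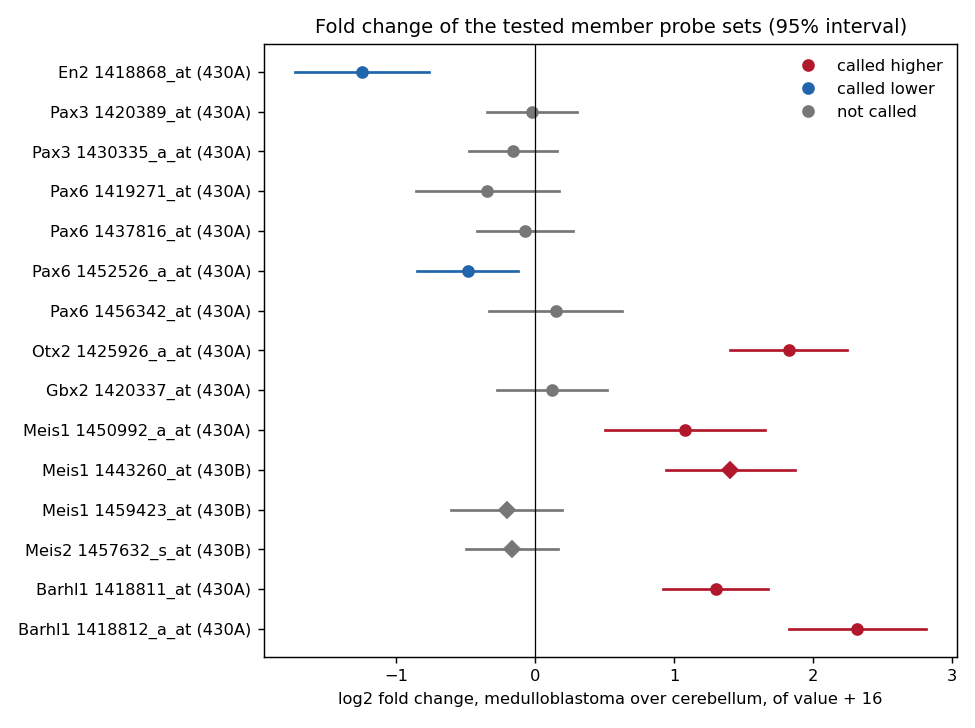
Log2 fold change of medulloblastoma over cerebellum with its 95% interval for the 15 tested member probe sets, red where called higher, blue where called lower and grey where not called, with circles for 430A and diamonds for 430B. The 5 called higher lie between 1.08 and 2.32, En2 lies at -1.25, and the intervals of the 8 uncalled ones include 0.

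**Figure D3:**
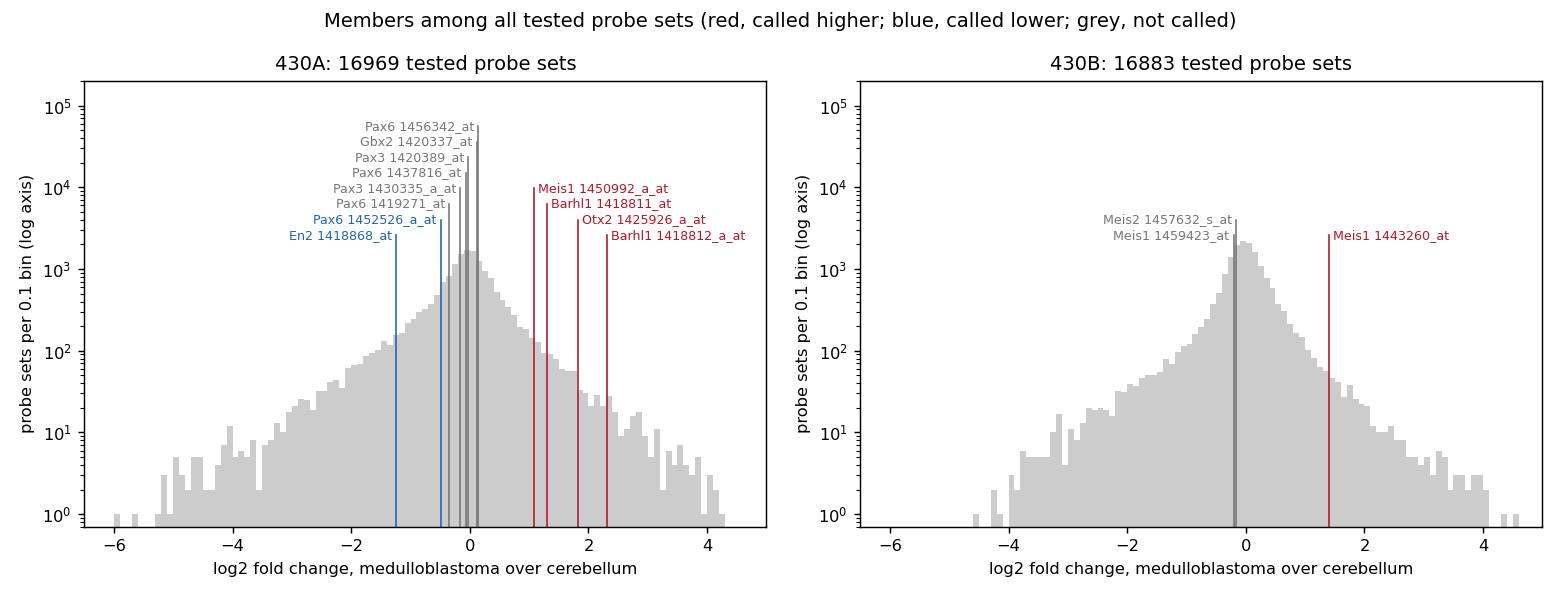
Histograms of the log2 fold change of medulloblastoma over cerebellum over all tested probe sets of 430A (16969) and 430B (16883), with the number of probe sets per bin on a log axis and a line for each member. The Barhl1 and Otx2 lines stand in the right tail of 430A, with 0.919% and 1.67% of probe sets beyond 1418812_a_at and Otx2.

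Set against all probe sets, the members spread widely in both directions. The median log2 fold change of the 12 tested members on 430A was 0.05, beside -0.05 over all tested probe sets. On 430B the 3 tested members had a median of -0.17, beside -0.02 over all. Of the tested members 7 of 12 on 430A and 2 of 3 on 430B had groups that do not overlap, where 55.6% and 45.6% of all tested probe sets did.

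Partners and relatives of the members were described through lists of related genes, each gene by 1 probe set. Over all 14702 genes tested in this way, 10.7% were higher and 16% lower, and the median log2 fold change was -0.05. Of 6 PBX, PREP and MEIS3 genes, whose proteins bind DNA with MEIS factors or resemble them, 1 was higher and 1 lower (median 0.04). Pbx3 had 159.6, 108 and 142 in tumours and 57.3 and 58.9 in cerebellum, with every tumour above both cerebellum samples. It differed by 1.03 ± 0.20 on the log2 scale (adjusted p = 0.0023), and its 430B probe set gave 1.69 ± 0.32 (adjusted p = 0.00438), or 1.08 without tumours 1 and 2. Pbx4 was lower at -0.45 ± 0.14 (adjusted p = 0.0284), a call that 5 of 12 other settings ended, among them leaving out either cerebellum sample, tumour 1 or tumour 3. Its log2 value was -0.78 with a pseudocount of 1 and -0.19 with 64. It read 12.85, 17.5 and 14.98 in tumours and 26.3 and 26.6 in cerebellum. The tumour mean of 15.1 lies below the filter limit of 15.9, so the probe set passed the filter through the cerebellum samples. Pknox1, which encodes PREP1, was not called on its 2 430A probe sets (0.47 and 0.43) but had 1.54 ± 0.20 on 430B (adjusted p = 0.00045), or 1.39 without tumours 1 and 2. Other probe sets of this list went down. Pbx2 was at -0.01 on the probe set that stands for it, but another of 430A was called lower, at -0.51 ± 0.17 (adjusted p = 0.0395). That other probe set averaged 13.8 in tumours, also below the filter limit, and 26.5 in cerebellum. Pknox2 was at 0.10 on 430A and at -0.38 ± 0.16 on 430B (adjusted p = 0.163), or -0.59 without tumours 1 and 2.

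Groucho/TLE proteins are corepressors that engrailed and several PAX factors bind. Of 6 tested genes 1 was higher and 1 lower (median 0.10). Tle1 had 202, 167 and 253 in tumours, against 39.0 and 26.0 in cerebellum, and a log2 fold change of 2.20 ± 0.22 (adjusted p = 2.16e-05), with 1.12 ± 0.20 from its other probe set. Tle3 was not called by the probe set that stands for it, but was called higher on another of 430A, at 0.62 (adjusted p = 0.0461), and on 430B, at 0.57 (adjusted p = 0.0139) and 0.52 without tumours 1 and 2. Tle2 had 9.22, 27.6 and 11.1 in tumours and 39.7 and 54.2 in cerebellum. No tumour reached the lower cerebellum sample, and the log2 fold change was -1.01 ± 0.23 (adjusted p = 0.00507). Without cerebellum 2 it was -0.85 and not called. It was -1.64 with a pseudocount of 1 and -0.48 with 64.

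Of 11 tested genes among the other PAX, OTX, GBX, BARHL, CRX and IRX factors 1 was higher and none lower in limma (median -0.03), with 2 higher and none lower at an unadjusted p below 0.05. The gene was Barhl2, the paralogue of Barhl1, with 43.0, 29.9 and 28.4 in tumours and 16.4 and 17.4 in cerebellum on 430B. Its log2 fold change of 0.59 ± 0.16 had an adjusted p of 0.0284. It was 0.43 and not called without tumours 1 and 2, and 0.22 under the scaling on shared sets, and 7 of 15 other settings ended the call, among them leaving out tumour 1, tumour 2 or either cerebellum sample. With a pseudocount of 1 it was 0.94, and with 64 it was 0.27.

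The isthmic organiser works through FGF8 and WNT1 signals and the feedback genes that FGF signals switch on. Fgf8, Fgf17, Fgf18, Wnt1 and Sp8 had means under 16 in both groups. Of 8 tested genes of this list 3 were lower and none higher in limma or at an unadjusted p below 0.05 (median -0.21). Fgfr1, the main FGF receptor of the region, was lower at -0.95 ± 0.17 (adjusted p = 0.00107), and at -1.36 and -0.49 with pseudocounts of 1 and 64. Another 430A probe set of Fgfr1 was lower at -0.80 ± 0.25 (adjusted p = 0.0307). Its 430B probe set was dim, with means of 12.3 in tumours and 13.7 in cerebellum, and was not called, at -0.07 ± 0.14 (adjusted p = 0.805). Spry2, a feedback inhibitor of receptor tyrosine kinases, was at -0.83 ± 0.21 (adjusted p = 0.0103), and was -0.71 and not called without cerebellum 1. Spred1, another such inhibitor, was at -0.64 ± 0.21 (adjusted p = 0.0398), and another 430A probe set was at -0.99 (adjusted p = 0.00135). None of its 4 tested 430B probe sets was called, but 2 were called lower without tumours 1 and 2, at -0.62 and -0.56. The call at -0.64 ended under 5 of 13 other settings, among them leaving out tumour 1 (-0.55), cerebellum 1 (-0.52) or cerebellum 2 (-0.75).

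**Figure D4:**
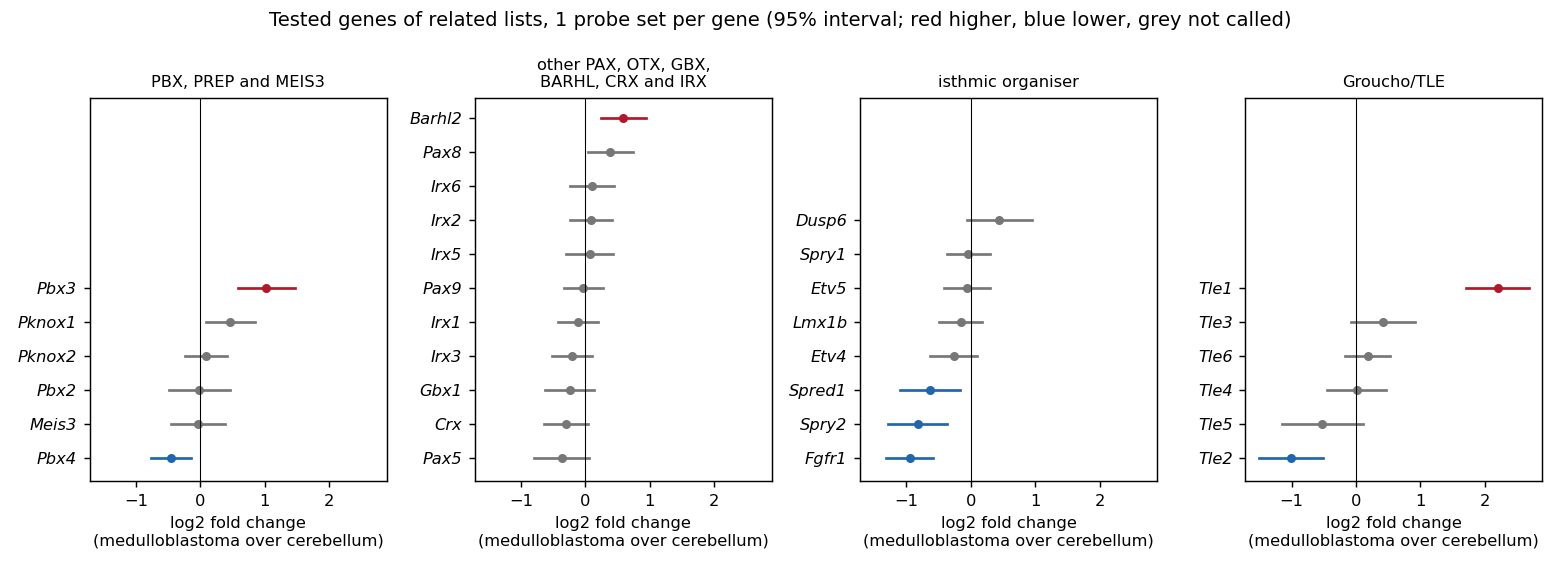
Log2 fold change of medulloblastoma over cerebellum with its 95% interval for each tested gene of the 4 related lists, by 1 probe set per gene, red where called higher, blue where called lower and grey where not called. Tle1 at 2.20 and Pbx3 at 1.03 lie farthest to the right, and Tle2 at -1.01 and Fgfr1 at -0.95 farthest to the left.

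Markers of other cells that hold member genes gave the following counts. Of 4 tested markers of unipolar brush cells, excitatory interneurons that carry Pax6, 3 were lower, with a 430A sum of 102 to 143 in tumours and 1284 to 1617 in cerebellum. Calb2 made up most of that cerebellum sum, at 851 and 1190. Of 9 tested markers of inhibitory interneurons, the lineage of Pax2, 5 were lower and 1, Lhx1, was higher (303 to 385 in tumours and 1325 to 1762 in cerebellum). Ptf1a and Lhx5 were under 16 in both groups. Gad1 made up most of the cerebellum sum, at 904 and 1320. These 2 sums therefore rest largely on single genes, and how far those genes are particular to these cells was not tested. Bergmann glia and astrocyte markers had 7 of 10 lower (914 to 1920 in tumours and 4553 to 5817 in cerebellum). Gfap and Fabp7, not called, were higher at an unadjusted p below 0.05, at 0.56 and 0.95, and 2 genes of the list were called higher under the replicate block. Meningeal and pericyte markers had 2 of 8 lower (496 to 682 in tumours and 748 to 755 in cerebellum) and endothelial markers 2 of 8 (295 to 334 in tumours and 333 to 359 in cerebellum). Whether any of these moved a member's value was not tested.

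**Figure D5:**
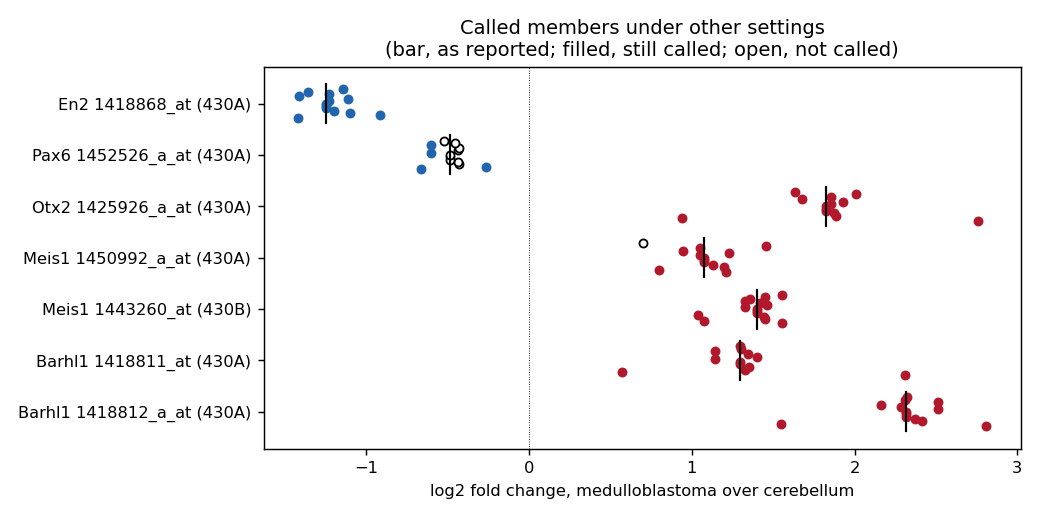
Log2 fold change of medulloblastoma over cerebellum of the 7 called member probe sets under every other setting run, with a bar at the reported value, filled points where the call was made and open points where it was not. Open points lie only at Pax6 1452526_a_at (8 of 13) and at Meis1 1450992_a_at (1 of 13), and no point lies across 0 from its bar.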

How the data were processed

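Affymetrix 430A and 430B arrays were made from 3 medulloblastomas and 2 cerebellum samples per chip, from Trizol-extracted RNA per the labels' protocols. The authors deposited 1 linear intensity per probe set and array, and the sources used here do not give the software, scaling or background treatment. Array medians differed by at most 0.0729 log2 units on 430A and 0.0544 on 430B, so no normalization was added. The filter limit corresponds to intensities near 15.9 and 11.3. No measure of detection was used, and the number of arrays limits the precision.

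Groups and replicate numbers came from the titles. The titles number the samples alike on both chips but do not say whether equal numbers are the same RNA. Calls for 1 gene on both chips may therefore not be independent. Each chip was fitted alone with limma 3.58.1 in R 4.3.3 (lmFit, eBayes with an intensity trend, two-sided), without pairing, on log2(value + 16). The fit was also run on simulated data with changes planted only in the brighter probe sets, so recovery of changes in dim members was not tested. No sample was dropped or imputed. Probe sets were named from the platform annotation. Of 22626 on 430A, 20380 name 1 gene, 691 name several and 1555 are unnamed here. Of 22511 on 430B the numbers were 14661, 245 and 7605. Of the single genes 20351 and 14486 matched the reference table, with no symbol replaced. For lists, a gene was read by a tested probe set of 430A before 430B, then by suffixes other than _s_at and _x_at, then by the highest mean. All members, and called genes of the 4 related lists, are named. Pbx2, Pknox1, Pknox2, Zic1, Ttr, Aqp1, Tle3, Gfap, Fabp7, Lhx1, Gad1, Calb2 and the dim organiser genes were named after their values were seen. The members and all 16 lists were chosen with earlier results of these data known. Figures used matplotlib 3.10.9.

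Alternatives changed the pseudocount (1 or 64), scaling, filter, eBayes trend, threshold, replicate block, probe set choice or a left-out array, and leaving out tumours 1 and 2 of 430B was added after seeing the data, as was the no-filter value of choroid plexus markers.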

Additional observations from a re-analysis of the deposited data

How the results depend on the processing

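Of the 7 called member probe sets, 5 were called under every setting run on them, and no called value changed sign. The count of higher members on 430A was 3 to 4 over the fits that leave out 1 array, and that of lower members 1 to 2. The lower count on 430A was 1 after quantile normalization, with equal array medians, with no filter, with no eBayes trend and at an adjusted p below 0.01, in each case without Pax6 1452526_a_at. With no filter, 2 members were higher and 1 lower on 430B, since Meis2 1440091_at and Pax3 1441743_at then entered the test. Of 104 values of uncalled members under other settings, 9 changed sign. Of 512 list counts, 53 moved by over 1.5 times, with no list test attached.

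With the replicate number as a block the counts were 4 higher and 2 lower on 430A, and 1 higher and 0 lower on 430B, as without it. Deviations of same-numbered samples correlated at -0.0287 and 0.17 on 430A and at 0.114 and 0.0204 on 430B, which does not settle whether same-numbered samples are paired. With 1 cerebellum array left, that lone sample is assumed to vary like the tumours, and without tumours 1 and 2 of 430B the lone tumour like the cerebellum samples. The 6 member probe sets below the filter, and Gbx2 just above it, limit what a missing call can say.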
